A study of Homo sapiens with 6 samples.

Results

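Messenger RNA of the anaphase-promoting complex or cyclosome (APC/C) was followed through 10 genes, taken by symbol from tables that list 30618 genes. These were the 5 core subunit genes ANAPC1, ANAPC2, CDC16, CDC23 and CDC27, the 2 activator genes CDC20 and FZR1, the inhibitor gene FBXO5, and the 2 ubiquitin-conjugating (E2) enzyme genes UBE2C and UBE2S. All 10 genes were present in both the count table and the FPKM table (fragments scaled by transcript length and by the mapped total of the library), and all 10 passed the filter on low counts. The libraries came from ARPE-19, an established human retinal pigment epithelial line. Every culture was held in 50 mM glucose. A non-targeting negative control siRNA (NC) was compared with an siRNA against EIF1 (siEIF1), the start codon selection factor of translation initiation, with 3 libraries in each group. The comparison asked what lowering EIF1 did to the transcriptome of high-glucose cells. It held a single line, a single siRNA sequence against EIF1, no library at ordinary glucose and no osmotic control.

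The APC/C is a large cullin-RING type ubiquitin ligase that marks mitotic and G1 proteins for the proteasome. Its core subunits form a stable scaffold, and its activity is timed by exchangeable partners. CDC20 brings substrates to it from metaphase to anaphase, and FZR1 (also called CDH1) does so from late mitosis through G1. UBE2C places the first ubiquitins on a substrate, UBE2S extends the chain, and FBXO5 (also called EMI1) keeps the ligase off during S and G2 phase. CDC20, UBE2C and FBXO5 transcripts are known to vary through the cell cycle, whereas most core subunit transcripts vary little.

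The 5 core subunit genes did not pass the test in either direction, and 4 of the 5 partner genes were lower in siEIF1. UBE2C and CDC20 were lower by more than 2-fold, and UBE2S and FBXO5 were lower by less than 2-fold. FZR1 was at nearly the same level in both groups. Of the 10 genes, 4 had an adjusted p under 0.05, all lower (quasi-likelihood test of edgeR, Benjamini-Hochberg adjusted over all genes). At this limit 10.4% of the 16749 genes tested were lower, 10.2% were higher and 20.6% passed in either direction. With the added demand of a change over 2-fold, below termed called, 2 of the 10 were called lower and none higher, against 1.31% and 0.400% of all genes tested and 1.71% in either direction. The count of 2 fell to 1 without siEIF1 replicate 3, where CDC20 had a log2 fold change of -0.99 and an adjusted p of 8.08e-05 in edgeR's quasi-likelihood test, and to 1 with limma on log2(FPKM + 1), where CDC20 had -0.89. The same 4 genes had no overlap between the groups in counts scaled to library size (CPM), which 18.9% of all genes tested showed in the lower direction, 18.2% in the higher and 37.1% in either. In a bulk library, fewer cycling cells and less RNA per cell cannot be told apart.

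**Figure D1:**
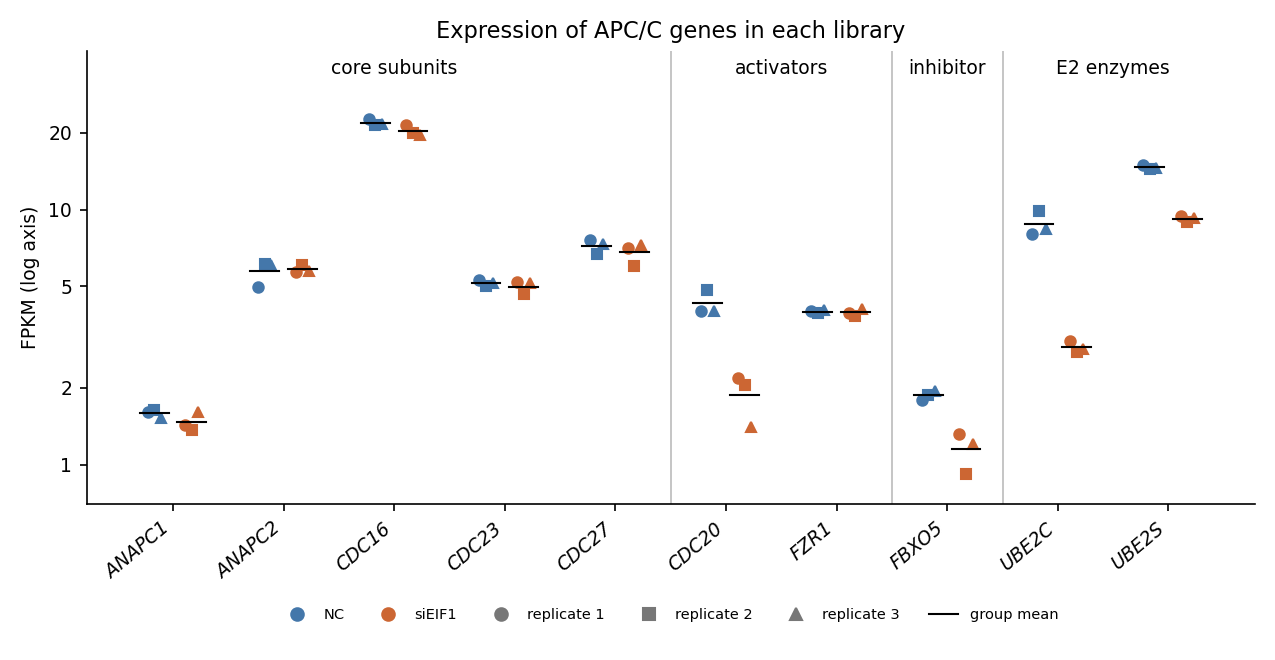
FPKM of each of the 10 APC/C genes in the 3 NC and 3 siEIF1 libraries, on a log axis, 1 point per library with a line at the group mean. The groups do not overlap for CDC20, FBXO5, UBE2C and UBE2S, and overlap for FZR1 and the core subunit genes other than CDC16, whose ranges lie edge to edge.

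EIF1 itself had an FPKM of 294.35, 281.08 and 281.28 in NC and of 24.28, 22.68 and 23.5 in siEIF1, so each library went with its label. Library totals ranged from 26499929 to 31431479 counts, of which the 10 APC/C genes took between 9401 and 10754, or 0.0317% to 0.0380%. Of 8 retinal pigment epithelium markers, 7 were analysed, and RPE65 was not among the listed genes. Of the 7, 4 (BEST1, MITF, OTX2 and SERPINF1) reached 1 FPKM. RLBP1 and PMEL stayed below 1 FPKM in both groups, and TYR was near 0 in both and was not tested. The summed FPKM of the 7 was 86.94 to 96.68 in NC and 66.05 to 89.69 in siEIF1. Most of that sum was BEST1, at 70.79, 66.58 and 60.54 FPKM in NC and 62.06, 55.04 and 38.79 in siEIF1, with overlap and an adjusted p of 0.106 in edgeR's quasi-likelihood test. The only called marker of the list was RLBP1, higher in siEIF1 at 0.237 ± 0.0577 FPKM in NC and 0.680 ± 0.0557 in siEIF1 (SD, n = 3), and OTX2 was higher without overlap but did not pass the test. The summed FPKM of 4 epithelial markers was 426 to 449.79 in NC and 499.41 to 521.75 in siEIF1, all but a trace of it from KRT8 and KRT18, with CDH1 and EPCAM near 0. Endothelial markers summed to at most 0.02 FPKM in any library. Leukocyte markers, nearly all CD68, summed to 0.83 to 0.98 in NC and 0.83 to 0.96 in siEIF1. The part of these differing marker values in the APC/C values was not tested. All 6 of the proliferation markers MKI67, TOP2A, PCNA, CDK1, MCM2 and CCNE2 were lower in siEIF1, with a median log2 fold change of -1.57, and their part in the results below was not tested.

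ANAPC1 (ENSG00000153107.13, chr2:111611639-111884690, minus strand, GRCh38) encodes the largest scaffold subunit and was the lowest of the core genes, at 1.61, 1.64 and 1.53 FPKM in NC and 1.43, 1.37 and 1.61 in siEIF1. The log2 fold change was -0.094 (95% interval -0.24 to 0.052), and the adjusted p was 0.372 in edgeR's quasi-likelihood test. The groups overlapped, since siEIF1 replicate 3 was level with NC replicate 1. Its pseudogene ANAPC1P2 held 92 to 133 counts per library beside at least 707 for ANAPC1 itself, so reads that fit both copies leave the ANAPC1 value less certain.

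ANAPC2 (ENSG00000176248.9, chr9:137174784-137188560, minus strand) encodes the cullin subunit that, with the RING subunit ANAPC11, forms the catalytic module. Its FPKM was 4.97, 6.15 and 6.05 in NC and 5.7, 6.07 and 5.73 in siEIF1. NC replicate 1 was the lowest of the 6 libraries, and the siEIF1 libraries lay inside the NC range. The log2 fold change was 0.047 (95% interval -0.12 to 0.22, adjusted p = 0.731 in edgeR's quasi-likelihood test), a sign that turned when either NC replicate 1 or siEIF1 replicate 2 was left out.

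CDC16, CDC23 and CDC27 encode tetratricopeptide repeat subunits of the arc that receives the activators. CDC16 (ENSG00000130177.16, chr13:114234887-114272723, plus strand) was the most abundant of the 10 genes, at 22.66, 21.56 and 21.65 FPKM in NC and 21.42, 19.96 and 19.69 in siEIF1. Its FPKM values were a little lower in siEIF1 without overlap, while its CPM ranges overlapped, and the log2 fold change was -0.088 (95% interval -0.20 to 0.024, adjusted p = 0.268 in edgeR's quasi-likelihood test). CDC23 (ENSG00000094880.11, chr5:138187650-138213343, minus strand) had 5.31, 5.04 and 5.17 FPKM in NC and 5.19, 4.65 and 5.15 in siEIF1. Its log2 fold change was -0.029 (95% interval -0.16 to 0.10, adjusted p = 0.791 in edgeR's quasi-likelihood test), and siEIF1 replicate 2 alone lay below the NC range. CDC23 shares 74 bases with KIF20A on the opposite strand. KIF20A had 64 to 89 counts in NC and 20 to 38 in siEIF1, a log2 fold change of -1.37. CDC27 (ENSG00000004897.12, chr17:47117703-47189422, minus strand) had 7.63, 6.73 and 7.32 FPKM in NC and 7.09, 6.04 and 7.25 in siEIF1. Here too siEIF1 replicate 2 was the only siEIF1 library below the NC range, and the log2 fold change was -0.069 (95% interval -0.21 to 0.071, adjusted p = 0.511 in edgeR's quasi-likelihood test). The median log2 fold change of the 5 core genes was -0.069, beside 0.0033 over all genes tested. The widest of the 5 intervals, that of ANAPC2, ran from 91.9% to 116% of the NC level.

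The 9 further APC/C subunit genes spanned 1.16 FPKM for ANAPC10 to 29.5 FPKM for ANAPC13 in NC. Their log2 fold changes lay between -0.21 and 0.11 with a median of -0.098. None was called in either direction, against 1.71% of all genes tested. In CPM, 4 of the 9 were lower without overlap and none higher, against 18.9% and 18.2% of all genes tested. The lowest fold change was that of ANAPC10, with 1.11, 1.26 and 1.12 FPKM in NC and 0.94, 0.98 and 1.05 in siEIF1. ANAPC7, another tetratricopeptide repeat subunit, was the only one of the 9 with an adjusted p under 0.05, and was lower. At that limit 10.4% of all genes tested were lower and 20.6% passed in either direction, so 1 of 9 is near the share over all genes. ANAPC7 had 9.02, 8.26 and 8.57 FPKM in NC and 7.65, 7.1 and 7.84 in siEIF1. Its log2 fold change was -0.17 (adjusted p = 0.0321 in edgeR's quasi-likelihood test), and it missed the threshold without NC replicate 1, NC replicate 3 or siEIF1 replicate 2 (adjusted p = 0.117, 0.0757 and 0.131) and with limma at either pseudocount (0.119 and 0.114). ANAPC11, the RING subunit, was at 7.85 ± 0.294 FPKM in NC and 6.89 ± 0.756 in siEIF1 (mean ± SD, n = 3). ANAPC4 and ANAPC5, platform subunits, were at 2.63 ± 0.137 and 7.49 ± 0.257 FPKM in NC and at 2.61 ± 0.141 and 6.91 ± 0.188 in siEIF1. The small subunits CDC26, ANAPC13 and ANAPC15 were at 9.30, 29.5 and 7.84 FPKM in NC and at 8.16, 28.7 and 8.33 in siEIF1. ANAPC16 had 25.97, 23.7 and 25.38 FPKM in NC and 27.18, 25.89 and 25.93 in siEIF1.

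**Figure D2:**
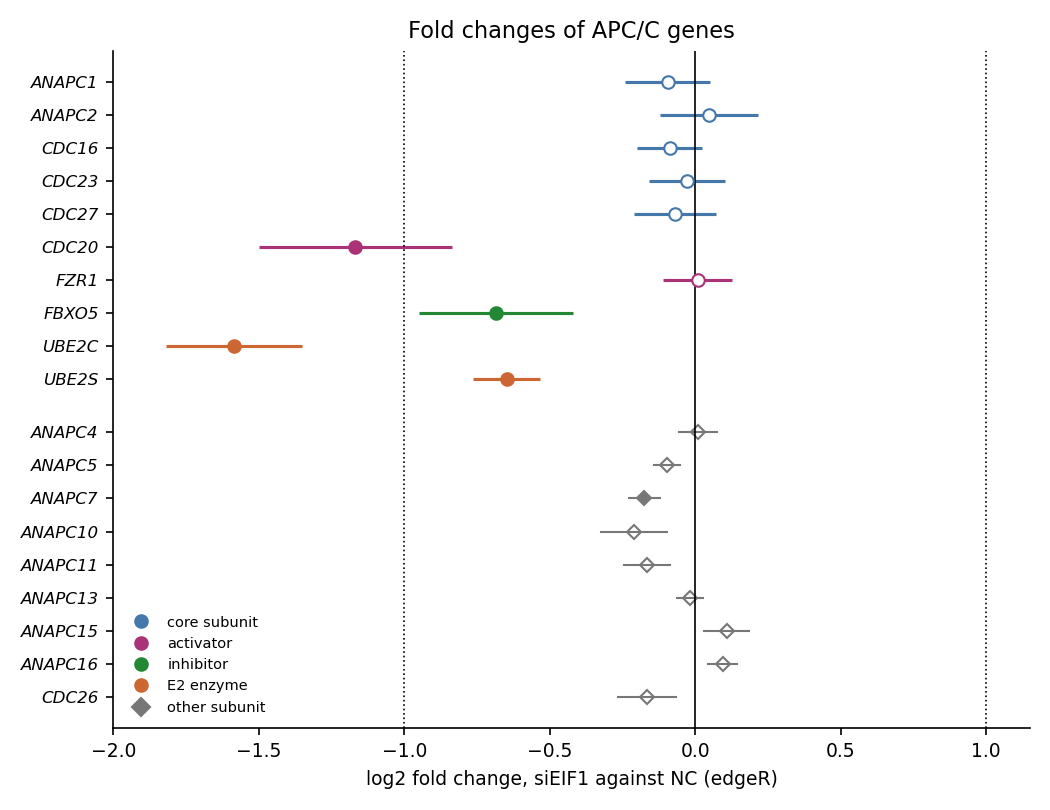
Log2 fold change of siEIF1 against NC from edgeR for the 10 APC/C genes, with 95% intervals and filled points at an adjusted p under 0.05, and for the 9 other subunit genes as diamonds with ± SE. The dotted lines mark 2-fold. UBE2C at -1.58 and CDC20 at -1.17 lie past the lower line, and every subunit lies between -0.21 and 0.11.

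CDC20 (ENSG00000117399.14, chr1:43358981-43363203, plus strand), the mitotic activator and the target of the spindle checkpoint, was lower in siEIF1. It had 262, 343 and 274 counts in NC and 168, 152 and 102 in siEIF1, or 4.01, 4.86 and 4 FPKM against 2.18, 2.05 and 1.4. All siEIF1 libraries lay below all NC libraries, with NC replicate 2 the highest and siEIF1 replicate 3 the lowest of the 6. The log2 fold change was -1.17 (SE 0.154), that is 44.5% of the NC level (95% interval 35.3% to 56.0%), with an adjusted p of 0.000155 in edgeR's quasi-likelihood test. Its coefficient of variation within siEIF1 was 22.3%, the widest of the 10 genes in either group.

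FZR1 (ENSG00000105325.15, chr19:3506311-3538334, plus strand), the activator of late mitosis and G1, had 3.99, 3.92 and 4.04 FPKM in NC and 3.95, 3.84 and 4.07 in siEIF1. The 2 groups covered almost the same range, with 841 to 891 counts in NC and 916 to 981 in the deeper siEIF1 libraries. The log2 fold change was 0.0087 (SE 0.055, 95% interval -0.11 to 0.13), with an adjusted p of 0.936 in edgeR's quasi-likelihood test. That interval runs from 92.7% to 109% of the NC level. The sign of this value turned to negative in 3 alternative settings. FZR1 shares 74 bases with MFSD12 on the opposite strand. MFSD12 had 775 to 925 counts per library and a log2 fold change of 0.0016. The strand setting of the counting is not given, so reads of the shared bases may not have been told apart.

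The activators were thus at like levels in NC and apart in siEIF1. The log2 ratio of CDC20 to FZR1 in FPKM was 0.0072, 0.31 and -0.014 in NC and -0.86, -0.91 and -1.54 in siEIF1. CDC20 made up 51.7% ± 3.13 (SD, n = 3) of the summed FPKM of both activators in NC and 32.0% ± 5.55 (SD, n = 3) in siEIF1. The ratio differed by -1.20 on the log2 scale, with no overlap between groups. The exact two-sided permutation test, chosen after seeing the data, gave p = 0.1, the smallest that 3 libraries against 3 allow. Groups without overlap always give this p, so no conclusion is drawn from it. The ratios of both E2 enzymes, the other such test, had the same p and an adjusted value of 0.1.

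The sequences around the transcript starts of these genes were set beside the change. The RefSeq promoter table (GRCh38.p14, 250 bases before to 50 after the start) was searched on both strands for letters known from cell cycle promoters. Of the 10 genes, 9 matched an entry, FZR1 and FBXO5 with 2 promoters each, and UBE2C was not matched. To let the letters of genes that passed the test and genes that did not be compared, 1 window of 30 bases is shown for each gene with a match of either kind before the start, with matches in capitals. TTTGAA is the core of the cell cycle genes homology region (CHR), bound by the DREAM and MuvB complexes, CCAAT is the box bound by NF-Y, and TTCAAA and ATTGG are the same letters read on the other strand.
CDC20, chr1:43358909-43358938, plus strand, CHR and CCAAT box: gttggatTTTGAAggagCCAATaggcgctc
FBXO5, chr6:152983064-152983093, minus strand, CHR: ttaggcaccaaaTTCAAAgattttaaaagt
FZR1, chr19:3506073-3506102, plus strand, CHR: ttcctgtattgaTTTGAAtcgcgggagacg
UBE2S, chr19:55407962-55407991, minus strand, CCAAT box: ccgcgggcccccATTGGccggcccgctacc
CDC16, chr13:114234702-114234731, plus strand, CCAAT box: ctgactctctcgCCAATgcccagaggcgcc
CDC23, chr5:138213323-138213352, minus strand, CCAAT box: ttatcgccgatgATTGGctggagtggcccg
CDC27, chr17:47189504-47189533, minus strand, CCAAT box: ctgggacggccgATTGGgcgtggtgtgcgt

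In the CDC20 promoter a CHR match lay at -65 to -60 and a CCAAT match at -55 to -51 from the start site, within 1 window. CDC20 held a further CHR match at -178 to -173 and a further CCAAT match at -100 to -96. FZR1, which did not differ between groups in the test, also held a CHR match, at -226 to -221. FBXO5 held one at -40 to -35 in its second promoter, where the window shown lies inside the annotated gene. The first FBXO5 promoter held none of the letters searched. The CHR letters were found in 3 of the 6 promoters of the activators, inhibitor and E2 enzyme, in 1 of the 5 core subunit promoters (ANAPC1, at 37 to 42 after the start) and in 15.2% of the 35116 promoters in the table. The CCAAT letters were found in 3 of 6, in 3 of 5 and in 34.6%, with 4 matches in the second FBXO5 promoter, of which a pair overlapped. The E2F letters TTTCCCGC, TTTGGCGC, TTTCGCGC and TTTGCCGC were found in CDC16 and CDC23, in none of the 6 partner promoters and in 3.315% of all promoters. A match describes letters in a window, not a bound site, and genes on both sides of the comparison held each of the CHR and CCAAT motifs.

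FBXO5 (ENSG00000112029.10, chr6:152970519-152983579, minus strand), the inhibitor, had 226, 253 and 255 counts in NC and 196, 131 and 167 in siEIF1. In FPKM this was 1.8, 1.87 and 1.94 against 1.32, 0.92 and 1.2. The groups did not overlap, and siEIF1 replicate 2 was the lowest library. FBXO5 fell by 0.68 on the log2 scale (SE 0.123, 95% interval -0.95 to -0.42) to 62.2% of the NC level, short of the 2-fold limit, with an adjusted p of 0.00152 in edgeR's quasi-likelihood test. A noncoding RNA on the opposite strand shares 249 bases with FBXO5 and had 37 to 78 counts per library. The libraries were directional, but the strand setting of the counting is not given in the sources used here, so reads of the 2 genes may not have been told apart.

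UBE2C (ENSG00000175063.17, chr20:45812576-45816957, plus strand), the E2 enzyme that starts the ubiquitin chain, had the largest change of the 10 genes. It had 337, 445 and 369 counts in NC and 151, 131 and 132 in siEIF1, or 8.06, 9.87 and 8.43 FPKM against 3.06, 2.77 and 2.84. The highest siEIF1 library was below the lowest NC library by a wide margin, and NC replicate 2 was the highest, as for CDC20. UBE2C fell by 1.58 on the log2 scale (SE 0.109, 95% interval -1.82 to -1.35) to 33.3% of the NC level, with an adjusted p of 7.89e-07 in edgeR's quasi-likelihood test. By p it stood at rank 36 of the 16749 genes tested.

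The study measured UBE2C by RT-qPCR in independent replicates as well. It reports differential expression between siEIF1 and control cells, matching its RNA-seq. The stretch the primers read can be placed on the gene. In the GRCh38 annotation both primers lay in coding sequence of exon 4 and bounded 131 bases. They are shown because the RNA-seq counts above cover the whole gene and the primers only this stretch.
UBE2C forward primer, chr20:45815602-45815620: cgcccacagtgaagttcct
UBE2C reverse primer, chr20:45815712-45815732: ctggatggagagcagaatggt

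UBE2S (ENSG00000108106.14, chr19:55399745-55407788, minus strand), the chain-extending E2 enzyme, had 14.98, 14.5 and 14.52 FPKM in NC and 9.41, 8.98 and 9.3 in siEIF1. The values within each group were tight, with coefficients of variation of 1.85% and 2.42%, and the groups lay far apart. UBE2S fell by 0.65 on the log2 scale (SE 0.0532, 95% interval -0.76 to -0.53) to 63.8% of the NC level, with an adjusted p of 2.79e-06 in edgeR's quasi-likelihood test. By p it stood at rank 91, although its change was under 2-fold. UBE2S shares 3506 bases with RPL28, a ribosomal protein gene on the opposite strand with 30362 to 37003 counts, against 925 to 1423 for UBE2S. The log2 fold change of RPL28 was 0.026 (adjusted p = 0.807 in edgeR's quasi-likelihood test), and without the strand setting a share of its reads in the UBE2S value cannot be told apart from UBE2S itself.

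Both E2 genes were lower, UBE2C by more than UBE2S. The log2 ratio of UBE2C to UBE2S in FPKM was -0.89, -0.55 and -0.78 in NC and -1.62, -1.70 and -1.71 in siEIF1, with no overlap. UBE2C made up 37.4% ± 2.82 (SD, n = 3) of the summed FPKM of both in NC and 23.8% ± 0.616 (SD, n = 3) in siEIF1. With canonical lengths these shares were 47.5% and 32.1%. The ratio differed by -0.93 on the log2 scale with either length. The exact two-sided permutation test again gave p = 0.1, the smallest possible, and no conclusion is drawn from it.

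Core and partner genes were also set against each other within each library, as the mean log2 FPKM of CDC20, FZR1, UBE2C and UBE2S minus that of the 5 core genes. The difference was 0.16, 0.28 and 0.16 in NC and -0.54, -0.53 and -0.74 in siEIF1. The group means were 0.20 ± 0.071 and -0.60 ± 0.115 (SD, n = 3), a shift of -0.81 on the log2 scale. The siEIF1 values were all below the NC values, as a description with no test. Whether the partners stood above or below the core within NC depended on transcript length. With the canonical length of each gene in place of the authors' length, an alternative chosen after seeing the data, the difference was -0.16, -0.037 and -0.16 in NC and -0.86, -0.86 and -1.06 in siEIF1, with the same shift of -0.81. FZR1 is one of the partners and did not take part in this shift.

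**Figure D3:**
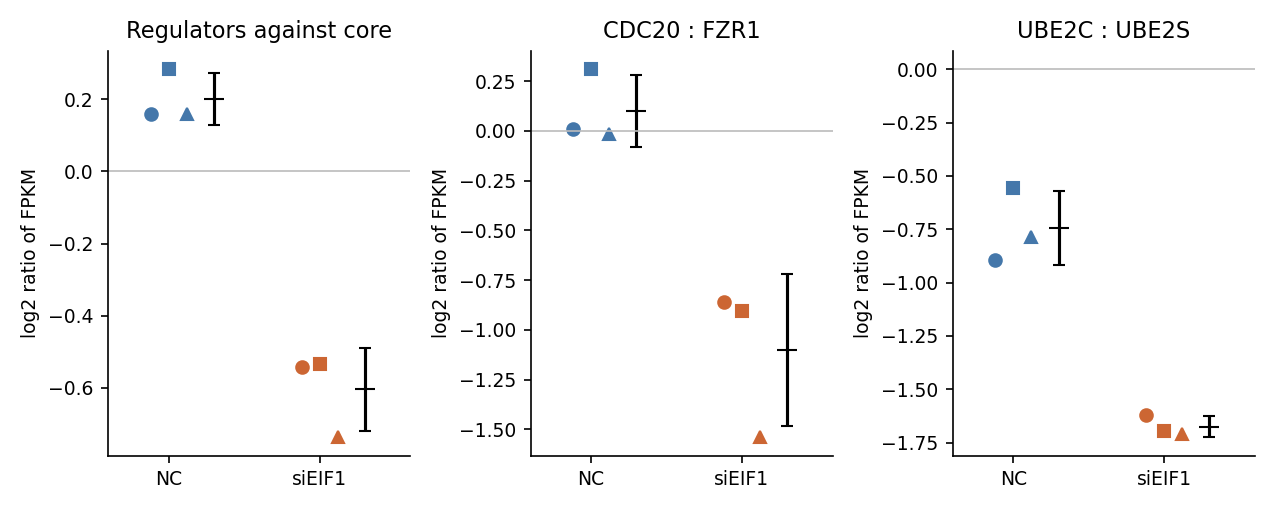
Log2 FPKM differences within each library for the partners against the core subunit genes, CDC20 against FZR1 and UBE2C against UBE2S, 1 point per library (circle, square and triangle for replicates 1, 2 and 3) with the group mean ± SD. In all 3 panels every siEIF1 library lies below every NC library.

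By FPKM, which is per transcript length, the order of levels in NC was CDC16 (22.0 ± 0.611), UBE2S (14.7 ± 0.272), UBE2C (8.79 ± 0.956), CDC27 (7.23 ± 0.457), ANAPC2 (5.72 ± 0.654), CDC23 (5.17 ± 0.135), CDC20 (4.29 ± 0.494), FZR1 (3.98 ± 0.0603), FBXO5 (1.87 ± 0.070) and ANAPC1 (1.59 ± 0.0569; mean ± SD, n = 3). The ranges of ANAPC2 and CDC23, and those of CDC20 and FZR1, overlapped, and the other neighbours were separate. In siEIF1 the highest were still CDC16 (20.4) and UBE2S (9.23), followed by CDC27 (6.79), ANAPC2 (5.83), CDC23 (4.65 to 5.19 over the libraries), FZR1 (3.95), UBE2C (2.89), CDC20 (1.88), ANAPC1 (1.47) and FBXO5 (0.92 to 1.32). UBE2C thus stood above CDC27 in NC and below FZR1 in siEIF1. In siEIF1 the ranges of CDC27 and ANAPC2, and those of CDC20 and ANAPC1, overlapped. With the summed gene counts taken as the mapped total, counts and FPKM imply up to 17.4 kb for ANAPC1 and up to 8.47 kb for CDC27. Their canonical transcripts have 7762 and 5830 bases. A larger mapped total would shorten every implied length by a common factor, so these are not known to be the lengths the authors used. The order across genes depends on the authors' lengths, while the comparison between groups does not.

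The genes whose profile over the 6 libraries was nearest to each partner were found by the root-mean-square distance of log2 CPM, each gene centred on its own mean. For UBE2C they were TOP2A at 0.0422, RAD54L at 0.0727 and TK1 at 0.0829. For CDC20 they were PIMREG at 0.120, KIF20A at 0.138 and CEP55 at 0.151, at greater distances than for any other gene examined. For UBE2S they were GADD45A at 0.0222, TMPO at 0.0229 and TUBA1B at 0.0234, and for FBXO5 they were FZD5 at 0.0638, C18orf54 at 0.0674 and LTB4R at 0.0687. The nearest to FZR1 were TM2D2 at 0.00643, IPO5 at 0.0115 and ZC3H11A at 0.0145, and those to ANAPC1 were C18orf25 at 0.0110, PTPRB at 0.0202 and ARIH2 at 0.0225.

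**Figure D4:**
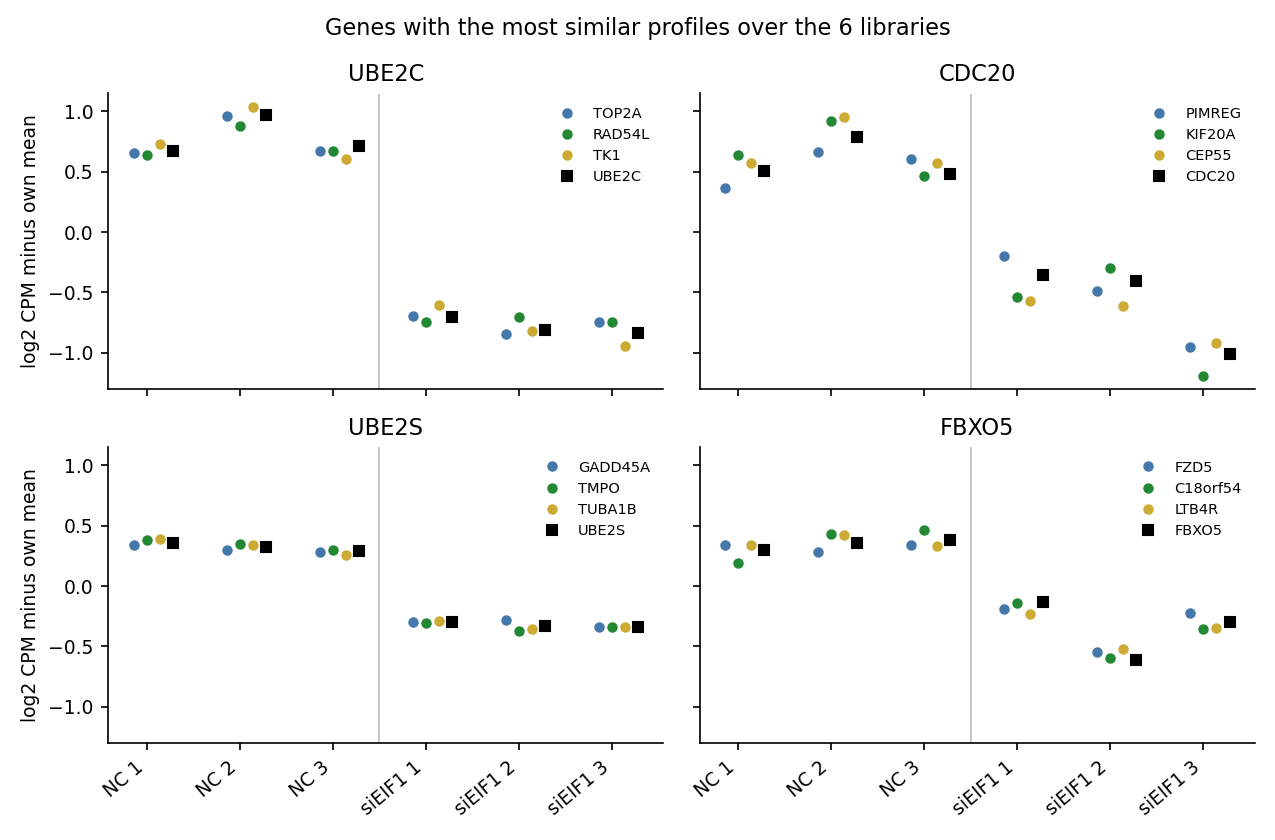
Log2 CPM minus each gene's own mean in the 6 libraries for UBE2C, CDC20, UBE2S and FBXO5 (black squares) and the 3 genes with the nearest profile (coloured points). CDC20 and its neighbours are lowest in siEIF1 replicate 3, and FBXO5 and its neighbours in siEIF1 replicate 2. The neighbours were picked for likeness over these same libraries, so a shared lowest library follows from the choice.

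The spindle checkpoint holds CDC20 inactive until chromosomes are attached. Of 8 checkpoint genes, 6 were lower at an adjusted p under 0.05 and 4 were called lower. Of all genes tested, 10.4% were lower at that limit and 1.31% were called lower. The median log2 fold change of the 8 was -1.11. This list and those below were chosen with earlier results of these data known. MAD2L1, which binds CDC20 directly, had 3.13, 3.12 and 3.21 FPKM in NC and 1.34, 1.07 and 1.46 in siEIF1, a log2 fold change of -1.27. The checkpoint kinase gene BUB1 had a log2 fold change of -1.63. TTK, another checkpoint kinase, had 0.990 ± 0.144 FPKM in NC and 0.343 ± 0.0896 in siEIF1 (SD, n = 3). TRIP13, an ATPase that remodels MAD2L1, had -1.26. BUB1B and BUB3 were lower by less than 2-fold. MAD1L1 and MAD2L1BP did not pass the test, at log2 fold changes of 0.012 and -0.11.

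Of 25 genes for known APC/C substrates, 22 were lower at an adjusted p under 0.05, against 10.4% of all genes tested. Of the 25, 14 were called lower, against 1.31%, and none was called higher, against 0.400%. The median log2 fold change of the list was -1.10. CCNB1, the mitotic cyclin destroyed through CDC20, had 7.07, 7.09 and 6.62 FPKM in NC and 3.21, 3.66 and 3.29 in siEIF1, a log2 fold change of -1.01. CDC6, the replication licensing factor, had 2.30 ± 0.445 FPKM in NC and 0.543 ± 0.147 in siEIF1 (SD, n = 3) and the lowest log2 fold change of the list, -2.07. RRM2 and TK1, enzymes of deoxynucleotide supply, had log2 fold changes of -1.73 and -1.59. TPX2, a spindle assembly factor, had -1.14, and the kinetochore protein gene CENPF had -1.10. SKP2, CKAP2 and CDC25A did not pass the test. These are transcript levels, and the abundance of the substrate proteins, which the ligase sets, was not measured in these tables.

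Of 9 other genes that act on the APC/C, 3 were lower at an adjusted p under 0.05 and none was higher. Of all genes tested, 10.4% were lower and 10.2% higher at that limit. The median log2 fold change of the 9 was 0.048. In CPM, 4 of the 9 were lower without overlap and 4 higher, against 18.9% and 18.2% of all genes tested. Those higher were UBE2D1, USP44, EVI5 and BTRC, at log2 fold changes of 0.19, 0.22, 0.17 and 0.16, and none of these passed the test. FBXO43 (EMI2), the meiotic counterpart of FBXO5, was called lower at -1.33, on 15, 17 and 15 counts in NC and 4, 8 and 8 in siEIF1. At so few counts this call was lost when any library other than siEIF1 replicate 3 was left out. USP37 and RASSF1 had log2 fold changes of -0.29 and -0.26. The 12 core genes of other cullin-RING ligases, relatives of the APC/C in build, had a median log2 fold change of -0.028. ELOC was lower and DDB1 higher at an adjusted p under 0.05 in this list, at -0.22 and 0.21, and none was called. The proliferation markers CDK1, TOP2A, MKI67 and CCNE2 were called lower at log2 fold changes of -1.66, -1.54, -1.60 and -1.82. MCM2 and PCNA, the other markers of this list, were lower by less than 2-fold, at -0.87 and -0.28. The values of UBE2C, CDC20, FBXO5 and UBE2S all lay in the wide range between those of CCNE2 and PCNA, and a link to these markers was not tested.

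**Figure D5:**
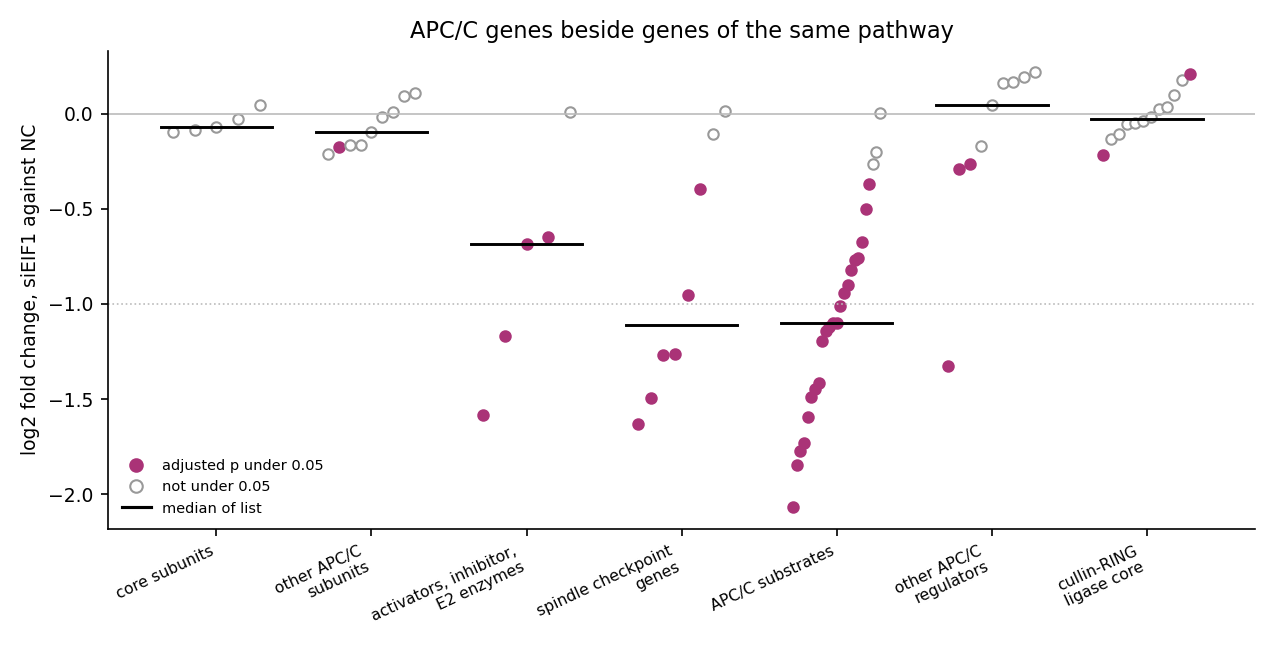
Log2 fold change of siEIF1 against NC for every gene tested in each list, with the list median as a line, filled points at an adjusted p under 0.05 and a dotted line at 2-fold lower. Subunit genes and the cullin-RING ligase core have medians between -0.098 and -0.028, and the checkpoint and substrate lists have medians of -1.11 and -1.10.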

How the data were processed

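Poly(A) RNA of 6 ARPE-19 libraries, 3 NC and 3 siEIF1, was sequenced from directional libraries as read pairs. The authors trimmed reads with FASTX-Toolkit 0.0.13, aligned them to GRCh38 with HISAT2 and used uniquely mapped reads for the deposited counts per gene and for the deposited FPKM values. The annotation, counter and strand setting are not given in the sources used here. Unique mapping removes reads shared by near-identical copies.

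Counts were tested here with edgeR 4.0.16 (quasi-likelihood test, TMM, filterByExpr, no covariate) in R 4.3.3, with Benjamini-Hochberg adjustment over 16749 genes. Calls needed both an adjusted p under 0.05 and a change over 2-fold. Intervals are 95%. FPKM served for levels and ratios. The edgeR p-values set the difference between groups against the spread between libraries within groups, estimated with information shared over genes. The methods describe independent biological replicates, with all libraries prepared side by side and sequenced together. Alternatives used DESeq2 1.42.0, limma 3.58.1 and other scalings and filters.

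The 10 genes and all lists were chosen with earlier results of these data known. Named genes were the 10, all other subunits, up to 6 called genes of each other list by smallest p, EIF1, and the 3 nearest profiles of 6 of the 10, among genes with a mean count of at least 50. MCM2, PCNA, RLBP1, BUB1B, BUB3, MAD1L1, MAD2L1BP, SKP2, CKAP2, CDC25A, USP37, RASSF1, ELOC and DDB1 were named after their values were seen. So were UBE2D1, USP44, EVI5 and BTRC. Gene positions and primer positions are from the GRCh38 annotation, and the gene identifiers of all 10 matched it. Exact permutation tests on the ratios and the use of canonical transcript lengths were chosen after seeing the data.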

Additional observations from a re-analysis of the deposited data

How the results depend on the processing

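CDC20, UBE2C, UBE2S and FBXO5 kept an adjusted p under 0.05 and their direction in all 14 alternatives, with log2 fold changes of -1.29 to -0.89, -1.64 to -1.33, -0.67 to -0.61 and -0.80 to -0.42. With the replicate number as a block, UBE2C had -1.58 and CDC20 -1.18, and the block changed no call of the 10 genes. Deviations of log2 CPM from the group mean correlated at 0.149, 0.0946 and 0.128 between the NC and siEIF1 libraries of the same number. The methods name no pairing, so the numbers were not taken as pairs. With limma on log2(FPKM + 1), which shrinks low genes, calls fell to 1 for the 10 genes (1 for the partners), 2 substrates, 2 proliferation markers, 0 checkpoint genes and 0 other regulators. Calls of other regulators were also 0 with DESeq2, with at least 10 counts in every library and with limma on log2(FPKM + 0.1). At an adjusted p under 0.05, limma with either pseudocount gave 0 other subunits and 1 cullin-RING gene, and other regulators numbered 0 with DESeq2 and limma at 0.1 and 1 with limma at 1.

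Leaving out each library gave 1 to 2 calls for the 10 genes and for the partners, and 0 to 1 calls of other regulators. At an adjusted p under 0.05 it gave 0 to 1 other subunits and 0 to 3 other regulators. Genes near 0 changed sign. FZR1 had -0.0089 and -0.011 with limma and ANAPC4 -0.0080 and -0.011, and leaving out a library gave FZR1 -0.0010 to 0.013, ANAPC4 -0.032 to 0.045, ANAPC2 -0.043 to 0.10 and CDC23 -0.057 to 0.0044. The cause was not tested. At 102 to 445 counts per library, values of CDC20, FBXO5 and UBE2C rest on few reads, and depth limits what could be seen for FBXO43.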
